A study of Mus musculus with 18 samples.

Results

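The genes described here are the semaphorins and their plexin receptors, the slits and their Robo receptors, the netrins, and the ephrins with their Eph receptors. They were taken by gene name, with transcript values summed per gene: 62 names of these families were found among 35310 gene identifiers, and the 44 with at least 1 FPKM (a level scaled to transcript length and sequencing depth) in 3 libraries of a table are reported. These 44 comprise 28 of the 35 ligands and 16 of the 27 receptors. The 18 RNA-seq libraries, all from mouse, fall into 6 groups of 3. The genotypes were wild type and sgNAT10, the latter with a CRISPR guide directed at the RNA acetyltransferase gene Nat10, and they were compared in MCA205 cells, in TC1 cells, and in tumours taken on day 8 after TC1 cells of either genotype had been placed under the skin of mice. MCA205 is a fibrosarcoma line induced with methylcholanthrene; TC1 is commonly described as a transformed lung epithelial line, although the labels call it fibrosarcoma too. No label gives the number of sgNAT10 clones, the guide sequence, the age or strain of the mice, or whether libraries of a group came from separate cultures or animals, so that p-values measure the spread between these libraries, which may be technical.

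These families were first known as guidance cues for growing axons and are used again in blood vessels, immune cells and tumours. Class 3 semaphorins are secreted and bind neuropilins held in complexes with plexins, while most other semaphorins span the membrane and bind plexins directly; plexins act on small GTPases and the cytoskeleton. Slits are large secreted ligands of Robo receptors. Netrins are secreted relatives of laminin whose classic receptors are DCC, neogenin and the UNC5 proteins. Ephrins are held at the cell surface, the A class by a lipid anchor and the B class by a membrane span, and they signal on cell contact to Eph receptor tyrosine kinases.

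Totals lay between 51661298 and 78501790 estimated counts per library. Nat10 stood at 14.2, 12.5 and 13.8 FPKM in wild-type and 13.2, 13.6 and 13.6 FPKM in sgNAT10 MCA205 cells, between 13.9 and 15.9 against 11.7 and 14.2 FPKM in TC1 cells, and between 14.8 and 16.2 against 12.3 and 16.3 FPKM in tumours. It was not called in any comparison, with a log2 change of 0.00 in MCA205 cells, -0.22 in TC1 cells and -0.22 in tumours, and its transcript level therefore does not check the labels. The tumour libraries differed from the TC1 cell libraries in genes that marked those cells. Genes were taken that stood at 5 FPKM or more in all 6 TC1 cell libraries and at least 20-fold above every MCA205 library. This rule was set after the data were seen and left without a test. The 8 liver and 12 intestine genes whose sums are given below were left out. Of the 54 genes so taken, only 2 reached 5 FPKM in all 6 tumour libraries and 25 stayed under 1 FPKM in all of them. Dlk1, for example, stood between 258 and 362 FPKM in TC1 cells, at 0 in MCA205 cells and between 0.229 and 1.13 FPKM in tumours. Many of the 54 were transcripts of liver or intestine, such as Mup3, Serpina1b and Defa20. The summed level of 8 liver genes lay between 637 and 1150 FPKM in TC1 cells and between 0.0178 and 473 FPKM in tumours. The part of such transcripts in these counts was not tested. By the same rule 4 genes marked MCA205 cells against TC1 cells, H2-K1, H2-D1, Rps21 and Gm19810, and all 4 reached 5 FPKM in all 6 tumour libraries. H2-K1 and H2-D1 are class I genes and Rps21 is a ribosomal protein gene, which host cells in a tumour express too. Macrophage markers summed to 645 FPKM or more in every tumour library. Rps21 stood between 0.971 and 1.81 FPKM in TC1 cells, between 319 and 483 FPKM in MCA205 cells and between 323 and 1030 FPKM in tumours. Gm19810 stood at 0 in TC1 cells, between 16.3 and 26.9 FPKM in MCA205 cells and between 32.3 and 124 FPKM in tumours. The part of host cells in the tumour levels of these 4 genes was not tested. From which line the tumour cells came was not tested. The tumour libraries are therefore called the libraries labelled TC1 tumours, or tumours for short, and nothing is read from their being grown from TC1 cells. Transcripts of liver and intestine were also present in many libraries of cultured cells. The summed level of 12 intestine genes was 9.54, 443 and 188 FPKM in MCA205 wild type 1 to 3 and 149, 2.95 and 171 FPKM in sgNAT10 1 to 3; it lay between 188 and 636 FPKM in TC1 cells and between 17.1 and 44.4 FPKM in tumours.

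The plexin Plxnb2 and the ephrin receptor Epha2 were the members with the highest mean FPKM in each wild-type group, followed by the secreted semaphorin Sema3a in MCA205 cells and tumours and by the ephrin Efnb2 in TC1 cells. Plxnb2, a receptor of class 4 semaphorins, stood at 86.8 ± 1.84 FPKM (SD, n = 3) in MCA205 cells, 63.1 ± 4.86 in TC1 cells and 49.2 ± 11.6 in tumours. Epha2, a receptor common in epithelia and in tumour cells, stood at 56.6 ± 3.01, 75 ± 5.43 and 29.2 ± 6.29 FPKM in the same order. Sema3a, which repels axons through neuropilin 1 and A-type plexins, stood at 47.8 ± 5.97 FPKM in MCA205 cells, 27.9 ± 7.69 in tumours and 9.92 ± 1.5 in TC1 cells, and the libraries of these groups did not overlap. Of the 44 members, 10 had their highest wild-type mean in MCA205 cells, 5 of them clear of the next group in every library. Another 20 were highest in TC1 cells, 13 of them clear of the next group, and 14 were highest in tumours, 6 of them clear of the next group. The tables may have been normalised separately, so these orders are descriptions without a test.

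Some members marked 1 setting. Slit3 stood at 4.52 ± 0.284 FPKM in wild-type TC1 cells against 0.525 ± 0.112 in tumours and 0.0826 ± 0.0748 in MCA205 cells, and the netrin Ntn3 stood at 2.37 ± 0.596 FPKM there against 0.0723 ± 0.0672 and 0.0357 ± 0.0107. Robo1, the widely used slit receptor, was highest in MCA205 cells at 2.03 ± 0.13 FPKM, with 1.04 ± 0.402 in tumours and 0.148 ± 0.196 in TC1 cells. Sema7a, a lipid-anchored semaphorin that binds integrins and Plxnc1, was highest in tumours at 20.5 ± 5.43 FPKM, with 3.15 ± 0.111 in TC1 cells and 1.02 ± 0.359 in MCA205 cells. Robo4, the Robo receptor of endothelium, was at 2.32 ± 0.459 FPKM in tumours and near 0.1 FPKM or below in both cell lines. In tumours, fewer cells of a type and less RNA per cell cannot be told apart.

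**Figure D1:**
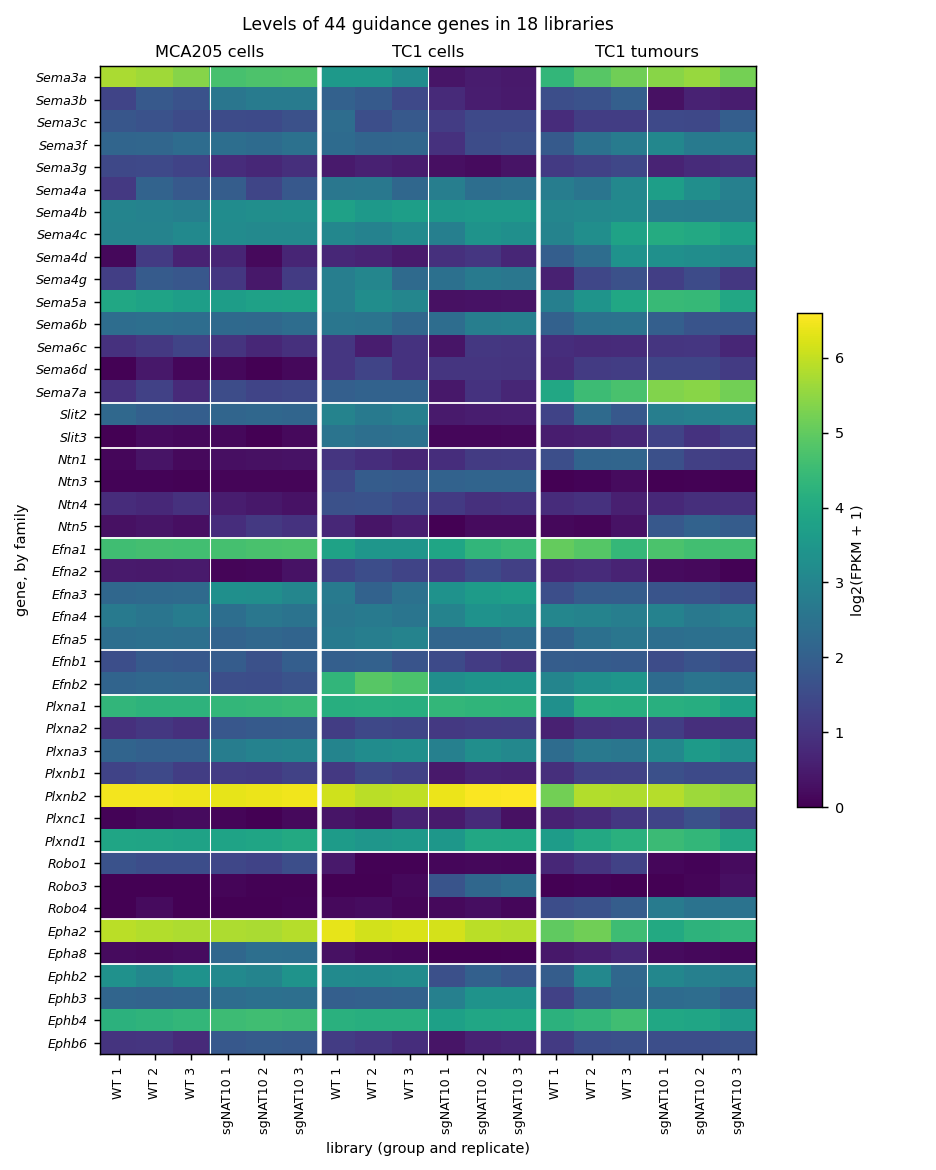
Level of each of the 44 genes (rows, by family) in each of the 18 libraries (columns, 3 per group), as log2(FPKM + 1), with white lines between groups and families. Plxnb2 and Epha2 are bright in every library, while Slit2, Slit3, Sema3a and Sema5a are bright in wild-type and dark in sgNAT10 libraries of TC1 cells.

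The first question was which of these genes differed between genotypes in TC1 cells. Of 28 ligands, 13 were lower and 3 higher in sgNAT10 cells, and of 16 receptors 6 were lower and 3 higher. Both slits and 7 of 15 semaphorins were lower and no semaphorin was higher, while 3 of 5 A-class ephrins were higher. In all, 6 members were higher and 19 lower of 44 tested, at an adjusted p under 0.05 in edgeR's quasi-likelihood test with Benjamini-Hochberg adjustment over all genes, which is the source of each adjusted p below. Of all 18823 genes tested, 37.9% were called, 15.9% higher and 22% lower, and the median log2 change was -0.27 over the members against -0.08 over all genes. Groups did not overlap in FPKM for 28 of the 44 members and for 50.8% of all genes. The member counts are descriptions, since some members passed the level filter through the group where they were high. For 7 members, only 1 group had at least 1 FPKM in all 3 libraries. That was a sgNAT10 group for Epha8, Ntn5, Plxnc1, Robo3 and Sema6d, and a wild-type group for Ntn4 and Slit3. Sema6d also passed the filter through 4 TC1 cell libraries of both genotypes. Where the comparison holds the group that let a gene in, as for Slit3, Ntn4 and Robo3 in TC1 cells, Epha8 in MCA205 cells and Ntn5 in tumours, a difference was favoured by that choice, and its values are given as a description without a p. Sema3g passed only through wild-type libraries of MCA205 cells and of tumours, and is treated likewise in those comparisons.

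Markers of connective tissue moved with the genotype in TC1 cells too. Of 8 fibroblast markers, 5 were lower and none higher, and their summed level was 177, 176 and 138 FPKM in wild-type and 11.2, 16.4 and 14.8 FPKM in sgNAT10 cells, with no gene at 0 and Fap under 0.1 FPKM in every wild-type library. Of 9 mesenchymal markers, Col1a1 being in both lists, 6 were lower and none higher, with sums of 1540 to 1930 FPKM in wild-type and 1280 to 1450 FPKM in sgNAT10 cells. In MCA205 cells both sums went the other way. Fibroblast markers summed to 86.9 to 106 FPKM in wild-type and 238 to 246 FPKM in sgNAT10 cells, with 2 higher and 2 lower of 7 tested. Mesenchymal markers summed to 738 to 748 against 908 to 952 FPKM, with 3 higher and 3 lower of 9. The part of these markers in the lower levels of slits and semaphorins in TC1 cells, or in the changes of MCA205 cells, was not tested.

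Slit3 had the deepest fall. It was expressed at 4.83, 4.27 and 4.47 FPKM in wild-type TC1 cells, against 0.0845, 0.0891 and 0.109 FPKM in their sgNAT10 counterparts. No library of either group came near the other, and the log2 change was -5.61 ± 0.16 (SE). Slit2, the best studied Robo ligand, went from 6.74, 5.45 and 6.19 FPKM to 0.392, 0.452 and 0.467 FPKM, a log2 change of -3.90 ± 0.13 (adjusted p = 9.07e-06). Every sgNAT10 library was again below every wild-type library. The slits lie on different chromosomes, Slit2 on chromosome 5 and Slit3 on chromosome 11, and in both most counts fell on 1 protein-coding transcript, 97% ± 2.26 (SD, n = 3) of Slit2 and 99.8% ± 0.105 of Slit3 in wild-type cells. The same holds for Sema3a and Sema5a. These 4 genes, which had the deepest falls of TC1 cells among members above 1 FPKM, are shown with Epha8, whose log2 change had opposite signs in the cell lines, by the 300 bases from 250 before to 50 after the RefSeq start (GRCm38.p6, the mm10 sequence). CpG pairs, where mammalian DNA is methylated, are in capitals.
Slit2 (chr5:47982905-47983204, plus strand): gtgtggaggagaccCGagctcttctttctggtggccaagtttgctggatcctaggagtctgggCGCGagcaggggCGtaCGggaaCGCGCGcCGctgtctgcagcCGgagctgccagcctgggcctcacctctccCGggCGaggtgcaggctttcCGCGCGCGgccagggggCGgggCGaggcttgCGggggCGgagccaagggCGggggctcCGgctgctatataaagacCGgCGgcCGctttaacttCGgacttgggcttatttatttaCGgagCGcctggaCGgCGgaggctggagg
Slit3 (chr11:35121206-35121505, plus strand): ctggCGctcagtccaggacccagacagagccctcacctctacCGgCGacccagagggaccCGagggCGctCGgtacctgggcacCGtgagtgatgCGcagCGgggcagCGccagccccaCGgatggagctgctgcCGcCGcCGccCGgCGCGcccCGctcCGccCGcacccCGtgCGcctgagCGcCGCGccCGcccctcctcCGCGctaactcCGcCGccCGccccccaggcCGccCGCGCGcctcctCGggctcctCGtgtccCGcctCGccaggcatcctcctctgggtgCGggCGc
Sema3a (chr5:13396534-13396833, plus strand): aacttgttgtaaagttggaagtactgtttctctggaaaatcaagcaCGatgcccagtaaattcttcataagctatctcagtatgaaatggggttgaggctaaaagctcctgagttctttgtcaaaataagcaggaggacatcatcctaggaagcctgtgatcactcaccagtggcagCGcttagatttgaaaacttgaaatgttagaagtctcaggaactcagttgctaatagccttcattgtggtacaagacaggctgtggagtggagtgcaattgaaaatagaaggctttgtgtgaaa
Sema5a (chr15:32244563-32244862, plus strand): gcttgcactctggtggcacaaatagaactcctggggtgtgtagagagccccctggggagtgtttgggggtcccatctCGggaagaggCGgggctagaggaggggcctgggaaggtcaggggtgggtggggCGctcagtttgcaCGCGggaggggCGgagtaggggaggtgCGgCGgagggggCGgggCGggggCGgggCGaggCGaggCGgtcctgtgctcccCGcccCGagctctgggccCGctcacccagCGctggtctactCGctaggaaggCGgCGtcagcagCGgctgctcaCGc
Epha8 (chr4:136956767-136957066, minus strand): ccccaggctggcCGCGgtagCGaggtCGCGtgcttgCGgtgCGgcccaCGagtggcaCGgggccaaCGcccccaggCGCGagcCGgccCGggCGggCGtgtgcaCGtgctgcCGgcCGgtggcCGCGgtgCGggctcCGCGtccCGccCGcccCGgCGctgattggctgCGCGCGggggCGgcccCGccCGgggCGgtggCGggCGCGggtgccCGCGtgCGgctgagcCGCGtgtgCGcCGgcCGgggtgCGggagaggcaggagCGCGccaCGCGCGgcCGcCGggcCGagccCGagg

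The capitals are frequent in 4 of the 5 windows and rare in that of Sema3a. The windows hold 30 CpG pairs for Slit2, 41 for Slit3, 2 for Sema3a, 23 for Sema5a and 56 for Epha8, where the median over 32851 RefSeq windows of this length is 7. Fewer pairs were found in 88.3%, 96.5%, 14.1%, 78.5% and 99.8% of all windows, respectively. Windows were given for 40 of the 44 members, 53 windows in all, and their median was 20. The letters CACGTG, the E-box bound by MYC and its relatives, which read the same on both strands and contain a CpG pair, occur once in the Epha8 window and in no other window shown; they are found in 3 of the 53 member windows (5.66%) and in 7.15% of all windows. The main deposited transcript starts at the RefSeq start for Sema5a and Epha8 and within the printed window for the slits, but 2525 bases downstream of the RefSeq start for Sema3a, outside the window shown. Methylation and binding were not measured here.

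Among the semaphorins, Sema3a and Sema5a fell furthest in TC1 cells. Sema3a stood at 10.9, 10.7 and 8.19 FPKM in wild-type and 0.303, 0.426 and 0.356 FPKM in sgNAT10 libraries. The groups lay far apart, with a log2 change of -4.86 ± 0.14 (adjusted p = 7.27e-06). Sema5a, a membrane semaphorin with thrombospondin repeats, stood at 6.1, 8.41 and 7.14 FPKM against 0.234, 0.254 and 0.264 FPKM. Its sgNAT10 libraries agreed closely among themselves, and the log2 change was -4.88 ± 0.15 (adjusted p = 8.18e-06). Sema7a went from 3.02, 3.23 and 3.2 FPKM to 0.335, 0.948 and 0.635 FPKM (log2 change -2.43 ± 0.34, adjusted p = 0.00159). Sema3b, a secreted semaphorin described as a tumour suppressor in human lung, went from 3.15, 2.68 and 1.74 FPKM to 0.725, 0.44 and 0.401 FPKM (log2 change -2.31 ± 0.30, adjusted p = 0.00127). Neither gene had overlapping groups. Sema3f, whose gene lies 72.3 kb from Sema3b on chromosome 9, fell by 1.10 ± 0.24 on the log2 scale (adjusted p = 0.0108). Sema3c and Sema3g were also lower, at log2 changes of -0.93 and -1.14, the latter at 0.445 FPKM or less on average. The class 4 semaphorins Sema4a, Sema4b, Sema4c, Sema4d and Sema4g and the class 6 semaphorins Sema6b, Sema6c and Sema6d were not called, with log2 changes between -0.24 and 0.57.

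Ephrins moved in both directions in TC1 cells. Efna1, Efna3 and Efna4, 3 A-class ephrins whose genes lie side by side on chromosome 3 with gaps of 32.8 and 10.4 kb, were all higher. Efna3 went from 5.51, 3.22 and 4.55 FPKM to 9.38, 11.2 and 12 FPKM, with no overlap and a log2 change of 1.25 ± 0.20 (adjusted p = 0.00299). Efna1 changed by 0.67 ± 0.18 and Efna4 by 0.64 ± 0.14 on the log2 scale. Efna5, on chromosome 17, fell by 0.80 ± 0.12, and Efna2, on chromosome 10, was not called at -0.21 ± 0.22. Efnb2, the B-class ephrin of arterial endothelium and a partner of Ephb4, stood at 19.1, 28.3 and 25.4 FPKM in wild-type and 8.63, 9.72 and 9.91 FPKM in sgNAT10 libraries. All wild-type values were above all sgNAT10 values, and the log2 change was -1.41 ± 0.15 (adjusted p = 0.000547). Efnb1 fell by 1.09 ± 0.26. Of the netrins, Ntn4, a basement membrane netrin, fell by 0.99 ± 0.19 (2.04 ± 0.211 to 1.01 ± 0.154 FPKM), and Ntn1, Ntn3 and Ntn5 were not called.

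Receptors of TC1 cells moved in both directions. Ephb2, a receptor of B-class ephrins, stood at 8, 7.73 and 8.04 FPKM in wild-type and 2.07, 3.09 and 2.48 FPKM in sgNAT10 libraries, which did not overlap (log2 change -1.63 ± 0.06, adjusted p = 1.03e-05). Ephb3, a close relative, went the other way, from 3.02, 3.17 and 3.22 FPKM to 6.31, 9.49 and 9.45 FPKM (log2 change 1.40 ± 0.15, adjusted p = 0.000638). Plxnb1, the receptor of Sema4d, went from 1.15, 1.69 and 1.41 FPKM to 0.361, 0.575 and 0.518 FPKM (log2 change -1.55 ± 0.20, adjusted p = 0.00127). Its relative Plxnb2 was higher by 0.48 ± 0.08 (63.1 ± 4.86 to 91 ± 6.36 FPKM, adjusted p = 0.00316). Ephb4, Ephb6 and Plxna2 were lower, at log2 changes of -0.36, -1.13 and -0.43. Epha8, a receptor of A-class ephrins, had a log2 change of -4.08 ± 1.17 from few counts: 76, 37 and 25 for wild type against 0, 0 and 8 for sgNAT10.

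Robo3, a Robo family member that tempers slit repulsion in crossing axons, gave the largest rise in TC1 cells and needs its transcripts beside it. Wild-type cells gave it 0, 0 and 20 estimated counts, and sgNAT10 cells gave it 312, 575 and 584. The groups did not overlap, and the fitted log2 change of 6.12 ± 1.16 depends on how such low counts are treated. In the sgNAT10 libraries 0% of the Robo3 counts were assigned to a protein-coding transcript: 34.2% ± 9.66 (SD, n = 3) fell on a transcript annotated to nonsense-mediated decay and the rest on retained-intron transcripts, led by one with 32.4% ± 5.64. Robo3 and Robo4 end 0.554 kb apart on opposite strands of chromosome 9, and no strand setting is given in the sources used here. Robo4 was at 0.109 ± 0.0502 FPKM in wild-type and 0.132 ± 0.0468 FPKM in sgNAT10 TC1 cells.

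Of the 25 TC1 calls, 16 held in each of the 6 fits that left out 1 library: Slit2, Slit3, Sema3a, Sema3b, Sema5a, Sema7a, Efna3, Efna4, Efna5, Efnb2, Ntn4, Ephb2, Ephb3, Plxnb1, Plxnb2 and Robo3. The level filter favoured the differences of Slit3, Ntn4 and Robo3, so their calls are listed here as a description only. The other 9 lost the call in at least 1: Ephb4 without sgNAT10 2 (log2 change -0.27), Sema3f without wild type 1 (-0.96), Efna1 without wild type 2, wild type 3 or sgNAT10 2 (0.65 to 0.73), Efnb1 in 4 fits (-0.96 to -0.80), and Sema3c (-0.91 to -0.50), Sema3g (-1.11 to -0.82), Epha8 (-4.28 to -3.41), Ephb6 (-1.24 to -0.77) and Plxna2 (-0.37 to -0.29) in 5 fits each.

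**Figure D2:**
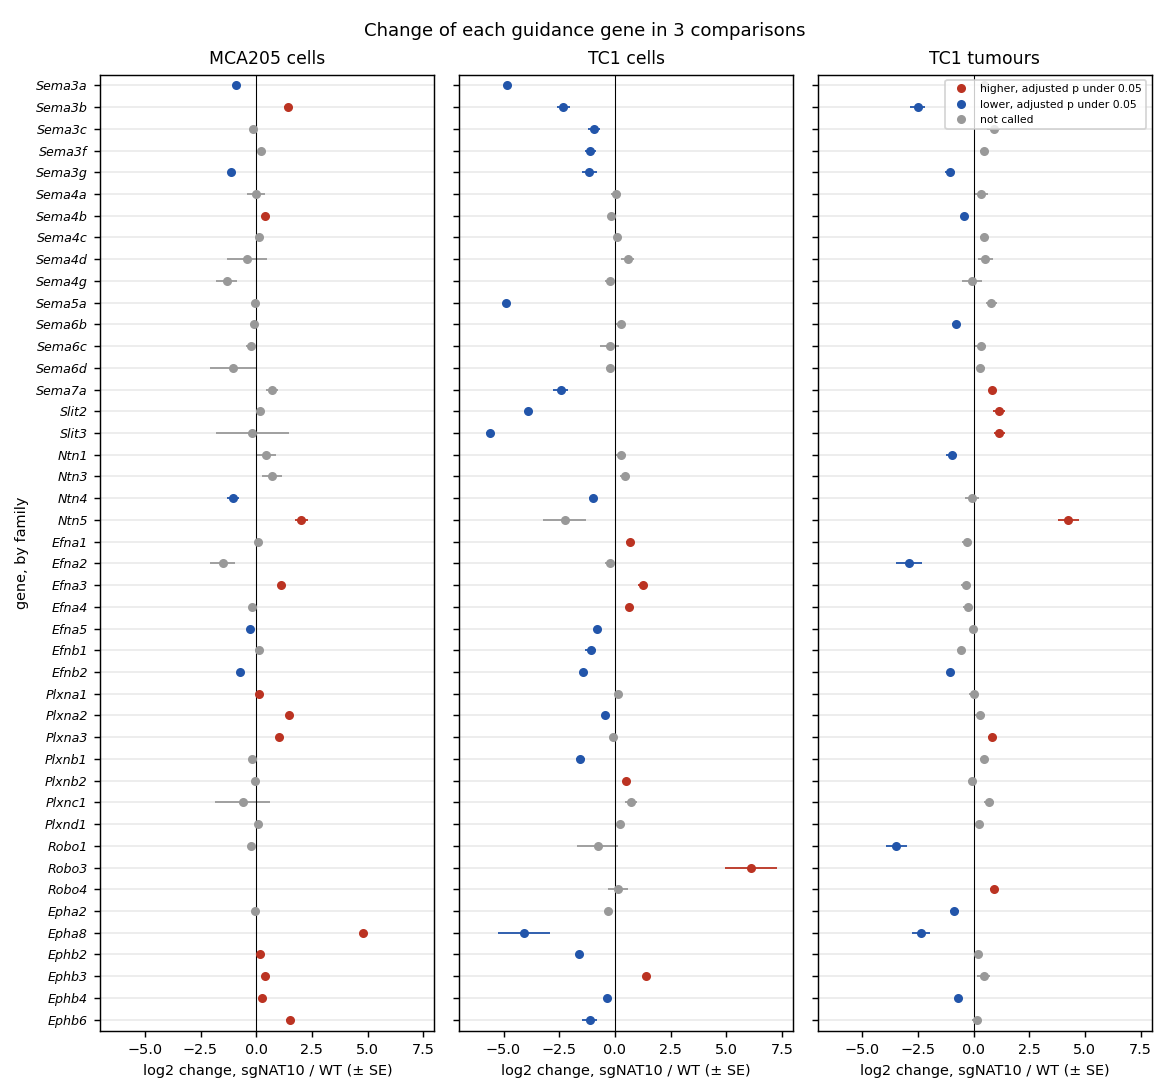
Log2 change in sgNAT10 against wild type for each of the 44 genes (rows, by family) in MCA205 cells, TC1 cells and tumours, with the SE as a bar, from edgeR fits of 6 libraries each. Red and blue points passed an adjusted p of 0.05 and grey points did not; genes without a point were not tested. The blue points reach -5.61 in TC1 cells, and in MCA205 cells all called plexins and Eph receptors are red.

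In MCA205 cells, the second line, most calls were rises, and Eph receptors and plexins led them. Of 14 receptors tested, 8 were called higher and none lower in sgNAT10 cells, among them 3 of 7 plexins and all 4 EphB receptors, Ephb2 on counts but not on FPKM; of 28 ligands, 4 were higher and 5 lower. The absence of lower receptors is a count of calls at the threshold and not a test of the class. In all 12 members were higher and 5 lower of 42 tested, while 40.6% of all 18101 genes were called, 21.2% higher and 19.4% lower. The share of members called, 40.5%, is thus close to that of all genes, and groups did not overlap for 22 of the 42 members against 52.6% of all genes. The median log2 change was 0.03 over the members and -0.03 over all genes, and Robo3 and Robo4 had too few counts to be tested.

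Epha8 rose most among the members in MCA205 cells. It stood at 0.152, 0.125 and 0.155 FPKM in wild-type and 3.62, 4.27 and 4.23 FPKM in sgNAT10 libraries, on 47, 41 and 43 against 1020, 1743 and 1257 estimated counts. The log2 change was 4.79 ± 0.14, and no library of either group came near the other. Ephb6, an Eph receptor without kinase activity, went from 0.997, 1.03 and 0.723 FPKM to 2.53, 2.73 and 2.57 FPKM (log2 change 1.51 ± 0.16, adjusted p = 0.00041). Ephb3 rose less, from 3.45, 3.27 and 3.38 FPKM to 4.14, 4.4 and 4.35 FPKM (log2 change 0.39 ± 0.06, adjusted p = 0.00305). Both had groups that did not overlap. Ephb4 was higher by 0.26 ± 0.04 (18.7 ± 0.906 to 22.2 ± 0.456 FPKM).

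Ephb2, which lies 93.4 kb from Epha8 on chromosome 4, showed a conflict of measures in MCA205 cells. Its counts gave a log2 change of 0.19 ± 0.05 (adjusted p = 0.0132), but its FPKM values overlapped, at 9.19, 7.37 and 9.27 in wild-type and 7.84, 6.9 and 9.4 in sgNAT10 libraries. On log2(FPKM + 1) limma gave -0.09. The share of its counts on a transcript of 10902 bases was 42.1% ± 15.5 (SD, n = 3) in wild-type and 63.5% ± 17.5 in sgNAT10 libraries, with overlapping ranges of 30% to 59.6% and 50.1% to 83.3%, and its part in the conflict was not tested. No direction is drawn for this gene in MCA205 cells.

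The A-type plexins, co-receptors of class 3 semaphorins, rose in MCA205 cells. Plxna2 went from 0.898, 1.1 and 0.9 FPKM to 2.48, 2.64 and 2.71 FPKM (log2 change 1.45 ± 0.09, adjusted p = 3.93e-05). Plxna3 went from 3.34, 3.06 and 3.07 FPKM to 6, 6.61 and 6.81 FPKM (log2 change 1.03 ± 0.06, adjusted p = 2.35e-05). Each sgNAT10 library exceeded each wild-type library in both genes. Plxna1 was higher by 0.13 ± 0.04. The B-type, C-type and D-type plexins were not called, with log2 changes between -0.60 and 0.07.

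Ligands of MCA205 cells split within families. Sema3a, the most abundant of them, stood at 53, 49 and 41.3 FPKM in wild-type and 24.7, 25.9 and 26.6 FPKM in sgNAT10 libraries. The groups did not overlap, and the log2 change was -0.90 ± 0.08 (adjusted p = 0.000205). Sema3g, a semaphorin of endothelium that acts through neuropilin 2, went from 1.68, 1.74 and 1.53 FPKM to 0.772, 0.649 and 0.868 FPKM (log2 change -1.11 ± 0.15, without a p because of how it passed the level filter). Sema3b went the other way, from 1.55, 2.57 and 2.19 FPKM to 5, 5.73 and 5.65 FPKM (log2 change 1.44 ± 0.18, adjusted p = 0.000803). Each group was clear of the other in these genes too. Sema4b, a membrane semaphorin, went from 6.81, 6.56 and 6.23 FPKM to 8.24, 8.6 and 8.68 FPKM (log2 change 0.38 ± 0.06, adjusted p = 0.00176). The remaining 11 semaphorins were not called.

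Among the ephrins of MCA205 cells, Efna3 was higher and Efnb2 and Efna5 were lower. Efna3 went from 3.64, 3.74 and 3.87 FPKM to 8.67, 8.62 and 7.16 FPKM (log2 change 1.10 ± 0.10, adjusted p = 0.000236). Its neighbours Efna1 and Efna4 were not called here, at 0.09 ± 0.04 and -0.19 ± 0.12. Efnb2 went from 3.35, 3.58 and 3.53 FPKM to 2, 1.95 and 2.24 FPKM (log2 change -0.75 ± 0.07, adjusted p = 0.000259), and Efna5 from 4.19, 4.42 and 4.27 FPKM to 3.32, 3.64 and 3.34 FPKM (log2 change -0.30 ± 0.07, adjusted p = 0.0102). In all 3 genes the groups were apart. A pair of netrins passed the test at low levels: Ntn5 rose from 0.24 ± 0.046 to 0.966 ± 0.146 FPKM (log2 change 2.03 ± 0.29, adjusted p = 0.00167) and Ntn4 fell from 0.802 ± 0.124 to 0.339 ± 0.0907 FPKM (log2 change -1.05 ± 0.27, adjusted p = 0.0196). The slits were not called: Slit2 stood at 3.23 ± 0.39 and 3.5 ± 0.102 FPKM, and Slit3 at 0.0826 ± 0.0748 and 0.0737 ± 0.0652 FPKM.

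Leaving out 1 library of MCA205 cells ended 3 of the 17 calls: Plxna1 in 4 of 6 fits (log2 change 0.10 to 0.12), Ntn4 without wild type 3, sgNAT10 2 or sgNAT10 3 (-1.02 to -0.89), and Ephb2 without sgNAT10 2 or sgNAT10 3 (0.15 to 0.17). A few uncalled semaphorins varied within groups as the intestine transcripts did. Sema4d, for example, stood at 0.0991, 1.22 and 0.554 FPKM in wild type 1 to 3 and at 0.611, 0.13 and 0.603 FPKM in sgNAT10 1 to 3, lowest in the 2 libraries with the lowest intestine sums. The part of those transcripts in Sema4d, Sema4a (1.14 to 3.26 FPKM), Sema4g (0.348 to 2.75 FPKM) and Sema6d (0.0143 to 0.331 FPKM) was not tested. Leaving out wild type 1 and sgNAT10 2 together, or adding the intestine sum as a covariate, ended no call that held in the fits without 1 library.

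**Figure D3:**
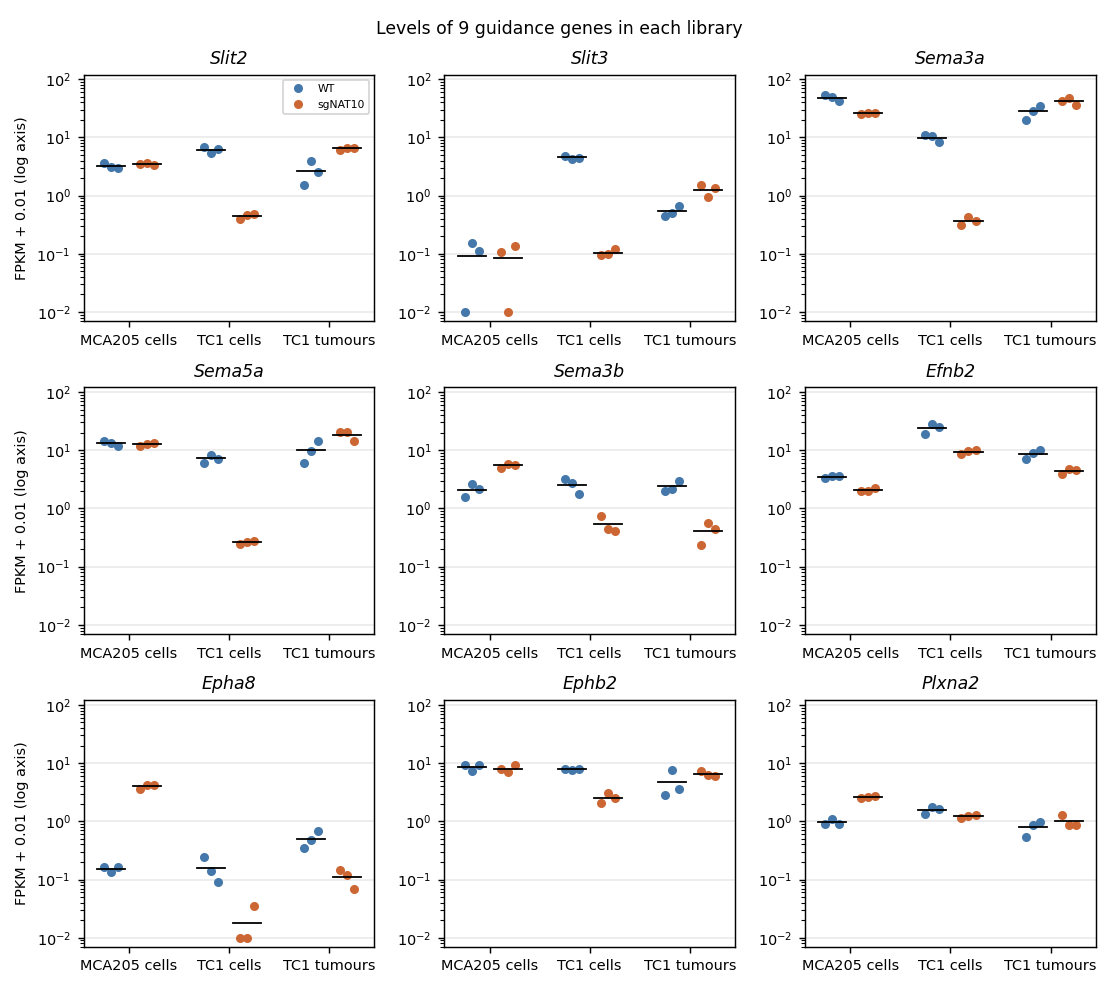
FPKM + 0.01 on a log axis for 9 genes in each library of MCA205 cells, TC1 cells and tumours, with wild type in blue, sgNAT10 in orange and the group mean as a bar. Slit2, Slit3, Sema3a and Sema5a are far lower in sgNAT10 than in wild-type TC1 cells, Efnb2 is lower in all 3 settings, and Epha8 is higher in MCA205 cells and lower in the other 2.

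The effects of the genotype in the 2 cell lines differed for many of these genes. A test of the difference itself over 12 libraries called 23 of the 44 members, against 35.3% of 20504 genes: in 19 the change in MCA205 cells lay above that in TC1 cells and in 4 below it, against 18.9% and 16.4% of all genes. Epha8 differed most, higher by 4.79 in MCA205 cells and with a log2 change of -4.08 in TC1 cells (difference 8.81 ± 1.10, without a p because of how it passed the level filter). Sema3b and Ephb6 were likewise called in opposite directions: their changes were 1.44 and 1.51 in MCA205 cells against -2.31 and -1.13 in TC1 cells (differences 3.69 ± 0.36 and 2.58 ± 0.38). Slit2 and Sema5a, uncalled in MCA205 cells at 0.19 and -0.04, differed by 4.04 ± 0.16 (adjusted p = 6.82e-08) and 4.78 ± 0.16 (adjusted p = 1.82e-08). Sema3a was lower in both lines and differed by 3.90 ± 0.14 (adjusted p = 3.58e-08). The 4 members with the lower change in MCA205 cells were Ephb3, Efna4, Efna1 and Plxnb2, with differences of -1.07, -0.89, -0.63 and -0.58.

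**Figure D4:**
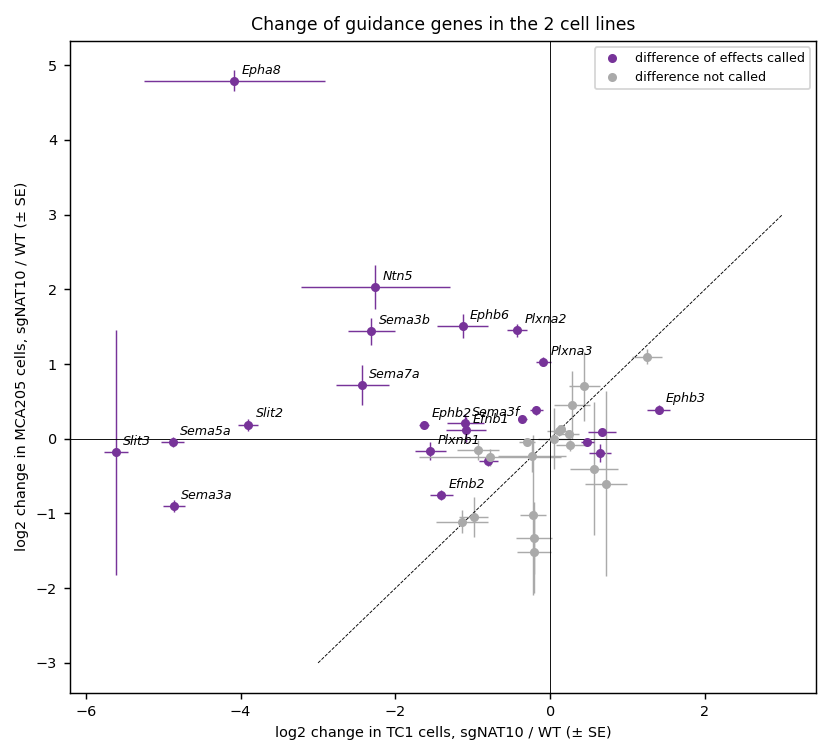
Log2 change in MCA205 cells (vertical) against that in TC1 cells (horizontal) for the members tested in both, with SE bars and a dashed line where the changes are equal; purple points are members whose difference of effects was called. Epha8 sits alone at the upper left, and Slit2, Slit3, Sema3a and Sema5a lie far left of the dashed line.

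In the libraries labelled TC1 tumours, the slits were higher and Robo1 lower in sgNAT10 tumours. Altogether 6 members were higher and 11 lower of 42 tested, against 17.4% of 19244 genes called, 7.65% higher and 9.72% lower. The median log2 change was 0.17 over the members and 0.02 over all genes. Most of these calls were fragile. Without sgNAT10 2 only Ntn5, Robo1, Sema3b and Efnb2 were still called, which were also the only 4 that held in each of the 6 fits without 1 library. Leaving out wild type 2, sgNAT10 1 or sgNAT10 3 ended 8 calls each, and leaving out wild type 1 or wild type 3 ended 2 each. Robo3 and Ntn3 were not tested for want of counts.

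The 4 lasting calls were 1 rise and 3 falls. Ntn5, the least studied netrin of the 4, stood at 0.112, 0.0613 and 0.26 FPKM in wild-type and 2.5, 3.24 and 2.82 FPKM in sgNAT10 tumours, on 17, 7 and 28 against 281, 332 and 322 counts. The separation was complete, with a log2 change of 4.26 ± 0.49, given without a p because only sgNAT10 tumours took this gene past the level filter. Robo1 went from 0.663, 1 and 1.46 FPKM to 0.0823, 0.0516 and 0.144 FPKM, on 408, 512 and 725 against 41, 24 and 75 counts (log2 change -3.48 ± 0.47, adjusted p = 0.00667). Sema3b went from 1.98, 2.17 and 2.98 FPKM to 0.221, 0.56 and 0.44 FPKM (log2 change -2.51 ± 0.33, adjusted p = 0.00622). Protein-coding transcripts held 95.6% ± 3.59 (SD, n = 3) of Sema3b counts in wild-type and 52% ± 41.3 in sgNAT10 tumours. In TC1 cells these shares were 91.2% ± 8.41 and 64.1% ± 55.6. Efnb2 went from 7.01, 8.96 and 9.93 FPKM to 3.97, 4.84 and 4.49 FPKM (log2 change -1.06 ± 0.12, adjusted p = 0.0046). In none of the 4 did a wild-type library overlap a sgNAT10 library.

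Both slits were higher in sgNAT10 tumours, and of 15 semaphorins 1, Sema7a, was higher and 4 were lower. Slit2 stood at 1.51, 3.86 and 2.53 FPKM in wild-type and 6.11, 6.52 and 6.69 FPKM in sgNAT10 tumours (log2 change 1.16 ± 0.27, adjusted p = 0.0293). Slit3 stood at 0.439, 0.483 and 0.652 FPKM against 1.49, 0.938 and 1.32 FPKM (log2 change 1.15 ± 0.25, adjusted p = 0.0237). Neither slit overlapped between groups, and each lost its call in 4 of 6 fits without 1 library, at 1.09 to 1.19 for Slit2 and 1.0 to 1.33 for Slit3. Sema7a went from 14.5, 21.9 and 25 FPKM to 39.5, 41.7 and 35.9 FPKM (log2 change 0.84 ± 0.15, adjusted p = 0.0132; 0.80 to 0.83 in the fits that lost the call). Sema3a, Sema5a and Sema3c missed the threshold at log2 changes of 0.48, 0.80 and 0.90, with groups that did not overlap; 22 of the 42 members and 40.4% of all genes tested had such groups. Sema3g went from 1.19, 1.42 and 1.63 FPKM to 0.574, 0.746 and 0.876 FPKM (log2 change -1.05 ± 0.23, and -1.22 to -0.90 in the fits that lost the call). Its p is left out because of how it passed the level filter. Sema6b, a plexin-binding membrane semaphorin, went from 3.12, 4.49 and 4.58 FPKM to 3.01, 2.25 and 2.31 FPKM (log2 change -0.80 ± 0.17, adjusted p = 0.024; -0.76 to -0.72 where lost). Both falls left the groups apart, narrowly for Sema6b. Sema4b, Efna2 and Ntn1 were lower, at log2 changes of -0.43, -2.88 and -0.98, Ntn1 with overlapping groups. Efna2 stood at only 0.661 ± 0.0897 FPKM in wild-type tumours.

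Receptors other than Robo1 changed as follows in tumours. Plxna3 went from 4.06, 5.34 and 5.04 FPKM to 7.45, 11 and 8.78 FPKM (log2 change 0.83 ± 0.16, adjusted p = 0.0177; 0.73 to 0.84 where lost). Epha2 went from 30.6, 34.7 and 22.4 FPKM to 15.1, 18.3 and 19.4 FPKM (log2 change -0.86 ± 0.21, adjusted p = 0.0329; -0.96 to -0.75 where lost). The groups were apart in both. Ephb4, the venous partner of Efnb2, fell by 0.72 ± 0.11 (20.1 ± 2.4 to 13.1 ± 1.62 FPKM), and Epha8 had a log2 change of -2.36 ± 0.41 at under 1 FPKM in every tumour. Robo4 went from 1.95, 2.17 and 2.83 FPKM to 5.68, 4.69 and 4.72 FPKM (log2 change 0.92 ± 0.16, adjusted p = 0.0128; 0.84 to 0.96 where lost). All sgNAT10 tumours were above all wild-type tumours.

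Markers of other cells moved with genotype in the tumours. Of 10 endothelial markers, 9 were higher and none lower, and their summed level was 48.6, 48.8 and 61.8 FPKM in wild-type and 103, 93.9 and 92.4 FPKM in sgNAT10 tumours, with none of the defining genes at 0. Skeletal muscle markers summed to 20.4 to 25.6 FPKM in wild-type and 85.5 to 131 FPKM in sgNAT10 tumours, with 4 of 6 higher. The summed liver markers were 0.0178, 44.8 and 181 FPKM in wild-type and 429 to 473 FPKM in sgNAT10 tumours, with 0 of 8 called. Adipocyte markers summed to 21.7 to 39.1 against 54.8 to 78.1 FPKM, with 1 of 4 tested higher. Dendritic cell markers summed to 6.74 to 14.1 against 17.4 to 21.2 FPKM, with 0 of 5 called. Schwann cell and neuron markers went the other way, from 39 to 45.3 FPKM in wild-type to 13.4 to 14.6 FPKM in sgNAT10 tumours, with 1 of 4 tested lower. Fibroblast markers, 2 of 8 higher, overlapped between the groups in their sums, and macrophage markers, 1 of 8 lower, did too. The part of these cells in the changes of Robo4, the slits, Sema7a and the other members was not tested.

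**Figure D5:**
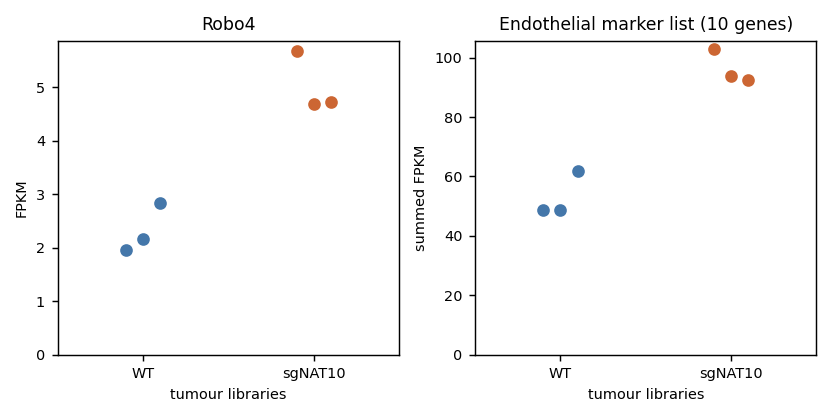
Robo4 level (left, FPKM) and summed level of the 10 endothelial markers (right, FPKM) in each of the 3 wild-type and 3 sgNAT10 tumour libraries, 1 point per library, axes starting at 0. Both are higher in each sgNAT10 tumour, from 4.69 FPKM for Robo4 and from 92.4 FPKM for the markers.

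The effect of genotype in tumours was also set against that in each cell line. Against TC1 cells, 20 of 44 members differed, where 26.1% of 21112 genes did: 13 had the higher change in tumours and 7 the lower, against 13.1% and 13% of all genes. Slit3, Sema5a, Sema3a and Slit2 differed by 6.75 ± 0.31, 5.65 ± 0.35, 5.31 ± 0.24 and 5.04 ± 0.36, since all 4 fell in TC1 cells and none did in tumours. Sema7a, higher in tumours and lower in TC1 cells, differed by 3.25 ± 0.36 (adjusted p = 0.000104). Efna3 and Efna4, higher in TC1 cells and not called in tumours, differed by -1.61 ± 0.28 and -0.92 ± 0.23. Against MCA205 cells, a comparison added after the label check, 14 of 44 members differed, where 21.2% of 20669 genes did: 4 had the higher change in tumours and 10 the lower, against 7.52% and 13.7% of all genes. Epha8, Sema3b and Robo1 differed by -7.16 ± 0.43, -3.96 ± 0.39 and -3.24 ± 0.48. These tests share their tumour or cell libraries and are not independent of each other.

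Across the 3 comparisons, 35 of the 44 members were called at least once, 5 in all 3 and 9 in none. Of all genes tested, 40.6%, 37.9% and 17.4% were called in MCA205 cells, TC1 cells and tumours. Joint shares over all genes were not computed, so the joint counts given here only describe the members. Only Efnb2 and Sema3g were called the same way in all 3, lower each time, and the 3 comparisons share no library. Sema3g passed the level filter through wild-type libraries of MCA205 cells and tumours alone, which favoured its falls there. The other 3 called each time were Sema3b, Epha8 and Ephb4, higher in MCA205 cells and lower in both TC1 cells and tumours, and Epha8 and Ephb4 lost their calls in TC1 cells and in tumours, as Sema3g did, when sgNAT10 2 was left out. In all, 10 members were called in opposite directions in at least 1 pair of comparisons. This count includes Ephb2, for which no direction is drawn in MCA205 cells. It also includes Plxna2, whose call in TC1 cells was kept in 1 alternative fit and lost in 14.

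The wider pathway was described by lists of co-receptors and of cytoplasmic effectors. Of the co-receptors and partners, 8 were higher and 3 lower of 15 tested in MCA205 cells, 1 higher and 9 lower of 17 in TC1 cells, and 1 higher and 0 lower of 17 in tumours. The shares called were 73.3%, 58.8% and 5.88%, where 40.6%, 37.9% and 17.4% of all genes were called. Nrp2, the neuropilin bound by Sema3f and Sema3g, was higher in MCA205 cells (50.1 ± 0.895 to 69.6 ± 2.21 FPKM, log2 change 0.48 ± 0.04, adjusted p = 9.35e-05) and lower in TC1 cells (49.2 ± 6.09 to 16.1 ± 1.31 FPKM, -1.65 ± 0.10, adjusted p = 7.15e-05). Flrt2, a surface protein that binds Unc5 receptors, was higher by 0.88 ± 0.05 in MCA205 cells and fell by 1.96 ± 0.07 in TC1 cells; its relative Flrt3 changed by 3.63 ± 0.24 and -2.19 ± 0.22. The netrin receptor Neo1 was higher by 0.61 ± 0.05 in MCA205 cells.

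Of the cytoplasmic effectors, 13 were higher and 9 lower of 34 tested in MCA205 cells, 8 higher and 12 lower of 35 in TC1 cells, and 2 higher and 4 lower of 35 in tumours. Their shares called were 64.7%, 57.1% and 17.1%, the last close to the 17.4% of all genes. Dpysl3, a collapsin response mediator that carries semaphorin signals to microtubules, fell from 34.2 ± 1.53 to 4.78 ± 0.801 FPKM in TC1 cells (log2 change -2.90 ± 0.13, adjusted p = 2.55e-05). Farp1, a guanine exchange factor that acts with plexins, was lower in both TC1 cells and tumours, at log2 changes of -1.02 ± 0.06 and -1.0 ± 0.13. Rnd3, a small GTPase of the plexin-binding Rnd group, was lower in both cell lines, at -0.94 ± 0.09 in MCA205 cells and -0.93 ± 0.09 in TC1 cells, while Rnd1 was higher by 0.54 ± 0.04 in MCA205 cells. In tumours Kalrn, an exchange factor downstream of EphB receptors, was higher by 0.77 ± 0.17 and Vav2, another one downstream of Eph receptors, fell by 0.76 ± 0.13.

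The 18 matching genes under the level filter were Efnb3, Epha1, Epha3, Epha4, Epha5, Epha6, Epha7, Epha10, Ephb1, Plxna4, Plxnb3, Robo2, Sema3d, Sema3e, Sema4f, Sema5b, Sema6a and Slit1. Of these, 11 were tested in MCA205 cells and 3 called, all higher, which is 27.3% against 40.6% of all genes. Sema6a went from 0.0268, 0.0809 and 0.0367 FPKM to 0.816, 1.03 and 0.688 FPKM. Plxna4, a receptor of Sema6a and Sema3a, went from at most 0.0243 FPKM to 0.592 or more, and Efnb3 was higher by 1.13 ± 0.23. In TC1 cells 2 of 11 tested were called (18.2% against 37.9% of all genes), Sema3d lower and Plxnb3 higher. In tumours 1 of 14 tested was called (7.14% against 17.4%), Epha3, which was higher. Sema3d, Plxnb3 and Epha3 each stayed under 0.4 FPKM in every library of that comparison.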

How the data were processed

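RNA was sequenced from 18 mouse libraries, 3 for each of 6 groups. The submitters' processing notes name the mm10 build, Bowtie2, featureCounts, Trim Galore and FastQC, and no version of any; which program made the values was not given in the sources used here. Per the file headers, each of the 3 deposited tables, 1 for each comparison, lists FPKM and estimated count values per transcript. FPKM is the authors' scaling of counts to transcript length and to depth. The deposited estimated counts were whole numbers, so rounding changed none. Columns labelled KO were taken as the sgNAT10 libraries, and 0 value columns were without a sample.

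Values were summed per gene. How reads shared by related, antisense or overlapping genes were assigned was the authors' choice. The members, lists and tests were chosen with earlier results of these data known. Counts of each table were fitted with edgeR 4.0.16 quasi-likelihood tests in R 4.3.3, with TMM factors and filterByExpr, and calls were made where the p adjusted over all genes tested (Benjamini-Hochberg) was under 0.05. Each SE is the log2 change divided by the root of the F statistic. Differences of effects were interaction contrasts over 12 libraries. Promoter windows are from RefSeq (GRCm38.p6). Library values in full are given for up to 12 called members per comparison, in order of change, with groups apart and a higher group mean of 1 FPKM or more, and for up to 4 genes of each pathway list with the smallest p, of which a selection is printed; other members are named with values or ranges.

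Alternatives were RLE factors, library size alone, no filter, DESeq2 1.42.0, a filter of 1 CPM in 3 libraries of a group, limma-trend 3.58.1 on log2(FPKM + 1) and log2(FPKM + 0.1), a replicate block, each library left out, the intestine sum as a covariate, and MCA205 cells without wild type 1 and sgNAT10 2. The covariate in TC1 cells and tumours and the comparison of tumours with MCA205 cells were added after the data were seen. No libraries of a group were alike within sampling noise (the lowest chi-square ratio was 11). Simulated counts with 200 changed genes were used to test the edgeR step.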

Additional observations from a re-analysis of the deposited data

Results flagged for a closer look

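The results listed here are members whose change with genotype differed between settings in a test of the difference itself, edgeR's interaction contrast. Each value is a difference of log2 changes. Slit3, Epha8 and Ntn5 passed the level filter only through the group where they were highest, which favours a difference. No explanation was weighed.

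Between MCA205 and TC1 cells, 23 members differed. Semaphorins with the higher change in MCA205 cells were Sema5a by 4.78, Sema3a by 3.90, Sema3b by 3.69, Sema7a by 3.10, Sema3f by 1.25 and Sema4b by 0.51. Both slits did so, Slit3 by 5.35 and Slit2 by 4.04, as did the netrin Ntn5 by 4.23. Slit3 stood at 0.0826 ± 0.0748 FPKM in wild-type MCA205 cells, a level that left little room for a fall there. Among ephrins the same held for Efnb1 by 1.16, Efnb2 by 0.61 and Efna5 by 0.44, while Efna4 and Efna1 had the lower change in MCA205 cells, by -0.89 and -0.63. Eph receptors with the higher change there were Epha8 by 8.81, Ephb6 by 2.58, Ephb2 by 1.77 and Ephb4 by 0.57, and Ephb3 had the lower one, by -1.07. Plexins with the higher change were Plxna2 by 1.83, Plxnb1 by 1.32 and Plxna3 by 1.06, and Plxnb2 had the lower one, by -0.58. The direction of Ephb2 in MCA205 cells rests on counts and not on FPKM. Efna1, Efna5 and Slit3 lost this call in some fits without 1 library, at -0.62 to -0.43, 0.34 to 0.47 and 4.74 to 5.57.

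Between tumours and TC1 cells, 20 members differed. Higher in tumours were the changes of Slit3 by 6.75, Ntn5 by 6.50, Sema5a by 5.65, Sema3a by 5.31, Slit2 by 5.04, Sema7a by 3.25, Sema3c by 1.80, Sema3f by 1.55 and Efna5 by 0.74. The receptors Plxnb1, Ephb2, Ephb6 and Plxna3 were also among them, by 2.02, 1.82, 1.25 and 0.89. Lower in tumours were the changes of Efna2 by -2.68, Ntn3 by -2.41, Efna3 by -1.61, Ntn1 by -1.29, Sema6b by -1.09, Efna1 by -0.97 and Efna4 by -0.92. Efna2 and Ntn3 rest on low tumour levels, at 0.661 ± 0.0897 and 0.0723 ± 0.0672 FPKM in wild type. The lowest sgNAT10 tumour library gave each of these 2 genes 4 counts. Efna1, Ephb6, Ntn1 and Ntn3 lost this call in some fits without 1 library, Ntn1 without tumour sgNAT10 2 alone.

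Between tumours and MCA205 cells, 14 members differed. The change was higher in tumours for Ntn5 by 2.23, Sema3a by 1.37, Sema3c by 1.03 and Slit2 by 0.96. It was lower for Epha8 by -7.16, Sema3b by -3.96, Robo1 by -3.24, Efna3 by -1.46, Ephb6 by -1.37, Plxna2 by -1.19, Ephb4 by -0.99, Epha2 by -0.83, Sema4b by -0.81 and Sema6b by -0.72. Epha2, Ntn5, Sema3c, Sema6b and Slit2 lost this call in some fits without 1 library, Ntn5 without MCA205 sgNAT10 1 alone.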

How the results depend on the processing

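Over 116 results and 1909 alternative values, 1660 kept the direction and the call, 247 lost the call and 2 reversed. Both reversals were Ephb2 in MCA205 cells with limma, at -0.09 on log2(FPKM + 1) and -0.10 on log2(FPKM + 0.1); the cause was not tested.

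Leaving out 1 library moved the members called to between 10 and 14 higher and 4 and 6 lower in MCA205 cells. In TC1 cells they were 5 to 10 higher and 12 to 15 lower. In tumours they were 1 to 10 higher and 3 to 10 lower, with 555 to 4612 genes called. For the differences, members were 17 to 18 higher and 3 to 6 lower (MCA205 and TC1 cells), 12 to 14 and 4 to 9 (tumours and TC1 cells), and 1 to 5 and 8 to 11 (tumours and MCA205 cells). Fewer libraries were fitted in each.

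In tumours, 10 members were higher with DESeq2 and 11 with the intestine covariate, which gave 5971 called genes; 4 were lower with limma at either pseudocount, and no filter gave 2152 called genes. Members with the lower change in tumours than in TC1 cells were 11 with DESeq2. Without a filter 2 members had the higher change in tumours than in MCA205 cells. The cause of these was not tested.

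Deviations of same-numbered libraries from their group means correlated at -0.514, -0.564 and 0.267 in MCA205 cells, -0.0736, -0.00841 and 0.0106 in TC1 cells and -0.0255, 0.00896 and -0.0727 in tumours. So few correlations cannot show whether replicate numbers paired the libraries. With a replicate block, 2 members were higher and 4 lower in tumours, of 836 called genes. Against TC1 cells 4 were lower, and against MCA205 cells 1 was higher, of 2618 called genes. Other member counts under the block stayed within 1.5 times. Members under 1 FPKM, such as Epha8 in TC1 cells, rest on few counts, and depth limits their folds.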
